A study of Mus musculus with 42 samples.

Results

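A set of 9 genes that encode proteins of neutrophil granules, or proteins packed beside them in the neutrophil, were followed across 42 mouse expression arrays. They were chosen by name, and every probe that the platform annotation gives to Mpo, Elane, Prtn3, Ltf, Lcn2, Ngp, Camp, S100a8 or S100a9 was taken. This gave 13 probes of 45281 on the array, 4 of them for Mpo, 2 for Ltf and 1 for each other gene, and all 9 genes were among the 10879 genes tested. Where a gene had several probes, the brightest over all arrays stood for it.

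The samples were mouse embryonic stem (ES) cells and 2 lots of germline cell-derived pluripotent stem cells, GPSC-A and GPSC-B, with 2 arrays per line and day, and primary hepatocytes from the livers of E16 embryos and of mice at postnatal day 1 (PN1), with 3 arrays each. Each stem cell line was sampled untreated (day 0) and after 2, 7, 14, 21 and 28 days as embryoid bodies, which are floating aggregates of differentiating stem cells, in a cocktail meant to direct them towards liver. The cocktail, the strain of the mice and the way the hepatocytes were purified are not stated in the labels. No genotype or allele is named for any group. Nothing in the labels says that replicates are independent cultures or animals, and the p-values therefore measure a spread that may be technical.

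Neutrophils fill their granules in sequence while they mature. Primary (azurophil) granules form first, at the promyelocyte stage, and hold myeloperoxidase and the serine proteases, and secondary (specific) granules follow at the myelocyte stage with lactoferrin, lipocalin 2 and the cathelicidin peptides. The liver of a fetal mouse is the main site of blood formation before the bone marrow takes over, so granulocyte precursors lie among its hepatocytes.

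The promoters of 4 members are shown, since they include the neighbouring protease genes Elane and Prtn3, one secondary granule gene detected only in the liver preparations (Ngp) and the one most widely shared with the late cultures (Lcn2). Each is the stretch of 250 bases before the annotated gene start, read 5′ to 3′ on the gene's strand, from the RefSeq promoter table of build GRCm38.p6, which listed all 9 members. Capitals mark matches on either strand to a core of the C/EBP motif (TTGCNNAA) or to the core bound by PU.1 (GAGGAA), the 2 transcription factor families best known for granulocyte genes.
Elane, chr10:79886062-79886311, plus strand: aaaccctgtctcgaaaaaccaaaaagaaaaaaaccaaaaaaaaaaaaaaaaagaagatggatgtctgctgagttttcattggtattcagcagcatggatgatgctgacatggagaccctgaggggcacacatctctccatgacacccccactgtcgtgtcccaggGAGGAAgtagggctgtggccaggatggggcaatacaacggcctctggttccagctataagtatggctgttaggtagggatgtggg
Prtn3, chr10:79879417-79879666, plus strand: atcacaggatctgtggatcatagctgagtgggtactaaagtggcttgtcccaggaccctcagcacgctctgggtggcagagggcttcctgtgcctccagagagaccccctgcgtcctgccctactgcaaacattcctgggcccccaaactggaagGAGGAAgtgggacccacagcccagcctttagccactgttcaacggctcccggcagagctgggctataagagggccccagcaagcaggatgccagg
Ngp, chr9:110419558-110419807, plus strand: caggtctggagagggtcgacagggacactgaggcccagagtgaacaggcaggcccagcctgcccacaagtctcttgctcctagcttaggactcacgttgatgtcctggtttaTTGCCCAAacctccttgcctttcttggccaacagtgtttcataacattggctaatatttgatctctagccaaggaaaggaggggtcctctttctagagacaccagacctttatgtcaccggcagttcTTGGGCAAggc
Lcn2, chr2:32387740-32387989, minus strand: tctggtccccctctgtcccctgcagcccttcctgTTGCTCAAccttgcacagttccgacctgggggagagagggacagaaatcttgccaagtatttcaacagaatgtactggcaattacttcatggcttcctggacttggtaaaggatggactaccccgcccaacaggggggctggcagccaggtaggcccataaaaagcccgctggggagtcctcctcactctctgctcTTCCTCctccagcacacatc
The C/EBP letters were present in 4 of the 9 member promoters (Ltf, Lcn2, Ngp with 2 matches, and S100a9), against 9.56% of 32851 mouse promoters of the same length. The PU.1 letters were present in 6 of 9 (Mpo with 2 matches, Elane, Prtn3, Ltf, Lcn2 and S100a8 with 2), against 23.3%. None of the 3 primary granule promoters held the C/EBP letters in this window, and all 3 held the PU.1 letters. In Ngp one C/EBP match ended 3 bases before the gene start. The 2 motifs did not overlap in the promoters printed, and Camp held neither. A match is a run of letters and was not tested as a binding site.

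Levels are log2 normalised signals, on which the 6 liver arrays reached at most 16.06, and a probe was counted as detected on an array at a detection p-value under 0.01. All 9 genes were detected on all 6 liver arrays. On the 36 culture arrays S100a9, Camp and Ngp were detected on 0, Mpo on 1, S100a8 on 2 and Elane on 5. Prtn3 was detected on 29 culture arrays, Lcn2 on 15 and Ltf on 14. The 9 genes thus fell into those near background in culture and the 3 that were measured there on both arrays of 7 or more of the 18 groups.

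**Figure D1:**
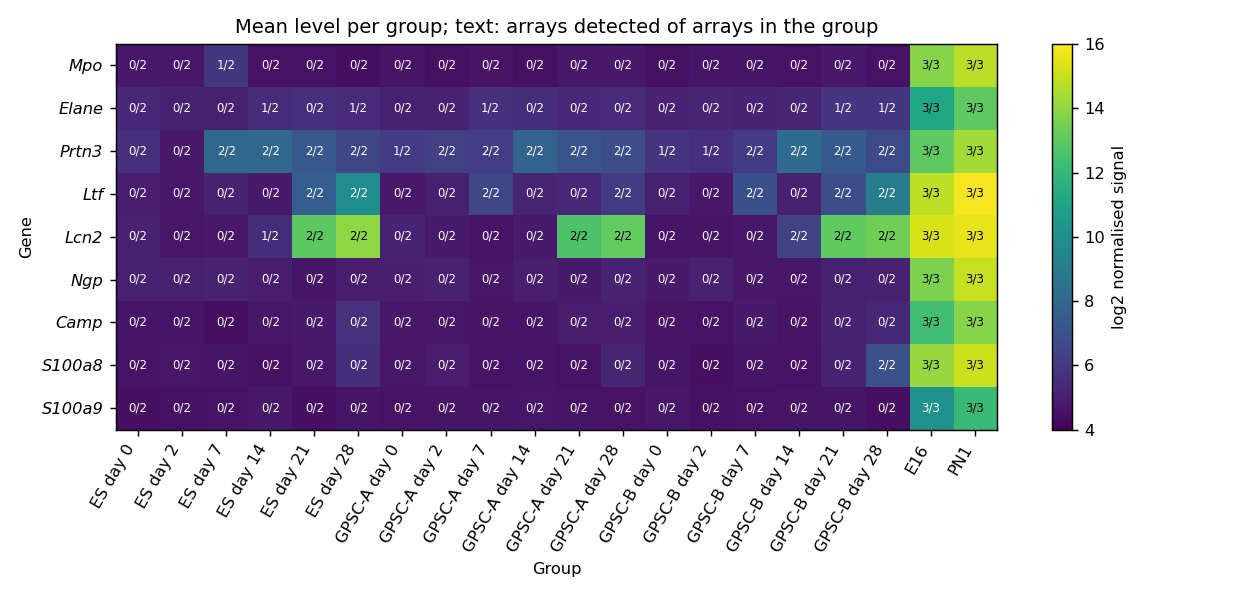
Mean log2 normalised signal of the 9 genes (rows) in the 20 groups (columns), coloured from low (dark) to high (yellow), with the number of arrays that detected the gene of those in the group. All genes were detected on 3 of 3 arrays in E16 and PN1, and in the cultures Lcn2, Ltf and Prtn3 stand out.

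Granule genes stood higher in the PN1 than in the E16 preparations, from Lcn2 at 1.28-fold to S100a9 at 4.03-fold. Calls needed an adjusted p (Benjamini-Hochberg) under 0.05 in a limma fit over all genes and arrays, and a difference of at least 2-fold. Of the 9, 5 were called higher in PN1 (Elane, Prtn3, Ngp, Camp and S100a9) and no mean was lower, where 10.3% of all genes tested were called higher and 13.5% lower. Every PN1 array lay above every E16 array for all 9 genes, which was true of 20.5% of all genes. The median change of all genes was 0.00.

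Among the primary granule genes, Elane, which encodes neutrophil elastase, read 11.56, 11.63 and 10.37 on the E16 arrays and 13.03, 13.08 and 12.99 on the PN1 arrays. The third E16 array was the lowest, and the groups were apart by more than the spread within either. The change was 1.85 ± 0.31 on the log2 scale (standard error, adjusted p = 2.1e-05 by limma). Prtn3, which encodes proteinase 3 and lies next to Elane in the genome, read 13.26, 13.33 and 12.46 in E16 and 14.37, 14.35 and 14.28 in PN1, with the same E16 array lowest. Its change was 1.31 ± 0.33 (adjusted p = 0.0025 by limma). Mpo, the myeloperoxidase that makes hypochlorous acid, read 13.62, 13.83 and 14.03 in E16 and 14.82, 14.74 and 14.77 in PN1. It differed by 0.95 ± 0.16, or 1.93-fold (adjusted p = 1.97e-05 by limma), and so passed the p but not the fold needed for a call.

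Among the secondary granule genes, Camp, which encodes the cathelicidin precursor of an antimicrobial peptide, read 12.60, 12.61 and 11.71 in E16 and 13.71, 14.06 and 13.66 in PN1, a change of 1.501 ± 0.24 (adjusted p = 1.3e-05 by limma). Ngp, a cathelicidin- and cystatin-related granule protein of mouse neutrophils, read 13.78, 13.86 and 13.28 in E16 and 14.92, 14.85 and 15.02 in PN1, a change of 1.29 ± 0.22 (adjusted p = 3.6e-05 by limma). Both were again lowest on the third E16 array. Ltf, the iron-binding lactoferrin, went the other way among the E16 arrays, with 14.47, 14.71 and 15.44, and read 15.83, 15.79 and 15.84 in PN1. Its difference of 0.95 ± 0.29 (adjusted p = 0.013 by limma) was under 2-fold. Lcn2, the lipocalin that binds bacterial siderophores and is made by many stressed epithelia as well as by neutrophils, read 15.54, 15.32 and 14.92 in E16 and 15.56, 15.66 and 15.64 in PN1. The nearest arrays of its groups almost touched, and its difference of 0.36 ± 0.24 did not pass the test (adjusted p = 0.27 by limma, 95% interval -0.12 to 0.84).

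The 2 subunits of calprotectin, a calcium- and zinc-binding protein that fills the neutrophil cytosol, both stood higher in PN1. S100a9 read 9.96, 10.40 and 9.81 in E16 and 12.26, 12.35 and 11.60 in PN1, a change of 2.01 ± 0.19 (adjusted p = 1.2e-09 by limma). S100a8 read 14.12, 14.17 and 14.21 in E16 and 14.87, 15.40 and 14.93 in PN1, a difference of 0.90 ± 0.21, or 1.87-fold (adjusted p = 0.0014 by limma). The E16 arrays of S100a8 lay close together, and its second PN1 array stood above the other 2. Without the third E16 array, Mpo (1.05) and Ltf (1.23) were also called, which made 7 of 9.

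**Figure D2:**
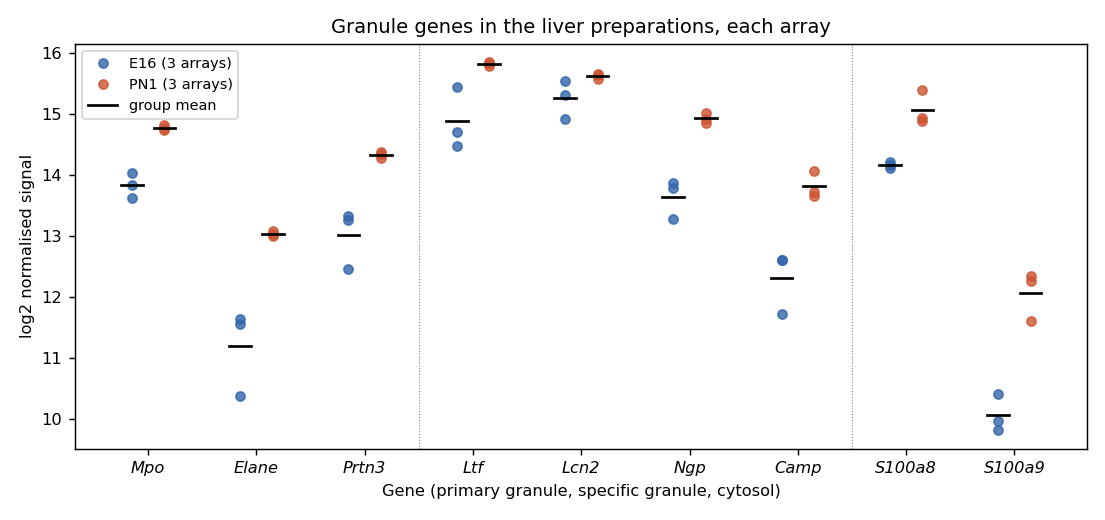
Log2 normalised signal of the 9 genes on each E16 array (blue) and PN1 array (orange), with bars at the group means. All PN1 points lie above all E16 points for each gene, by least for Lcn2, and the third E16 array is the low blue point of Elane, Prtn3, Camp and Ngp.

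The changes of early and late granule genes overlapped. The 3 primary granule genes changed by 0.95 to 1.85 with a median of 1.31, the 4 secondary granule genes by 0.36 to 1.501 with a median of 1.12, and 2 of 3 and 2 of 4 were called. The order of the changes closely followed that of the E16 signals. The rank correlation of a gene's PN1 minus E16 difference with its E16 level was -0.98 over the 9 members (a description over probes that share the same 6 arrays), from S100a9, the dimmest, to Lcn2, the brightest. On the scanner's log2 values before normalisation it was -0.88, and over the other scalings tried -0.95 to -0.90. On every scale the E16 value enters both sides of this correlation with opposite sign, which leans it towards negative values. The normalised scale also ends at 16.06 on the liver arrays, which bounds the rise of the brightest genes. The 4 probes of Mpo showed the same order within a gene. From the brightest in E16 (13.83) to the dimmest (10.58) they gave differences of 0.95, 1.39, 1.60 and 1.80, and on the scanner's values 0.99, 1.19, 1.22 and 1.35. The second Ltf probe, detected on 0 of 3 E16 and 2 of 3 PN1 arrays, gave 2.07 where the first gave 0.95, but on the scanner's values 0.38 against 1.05. Of the 106 genes at a level of 14 or more in E16, which included Ltf, Lcn2 and S100a8, 1 was called higher in PN1 (Taldo1, singled out after its value was seen), or 0.943%, against 11.2% of the 8505 genes under a level of 10. Grouping genes by their E16 level has the same limits. The part of signal level in the sizes of these changes was not tested.

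**Figure D3:**
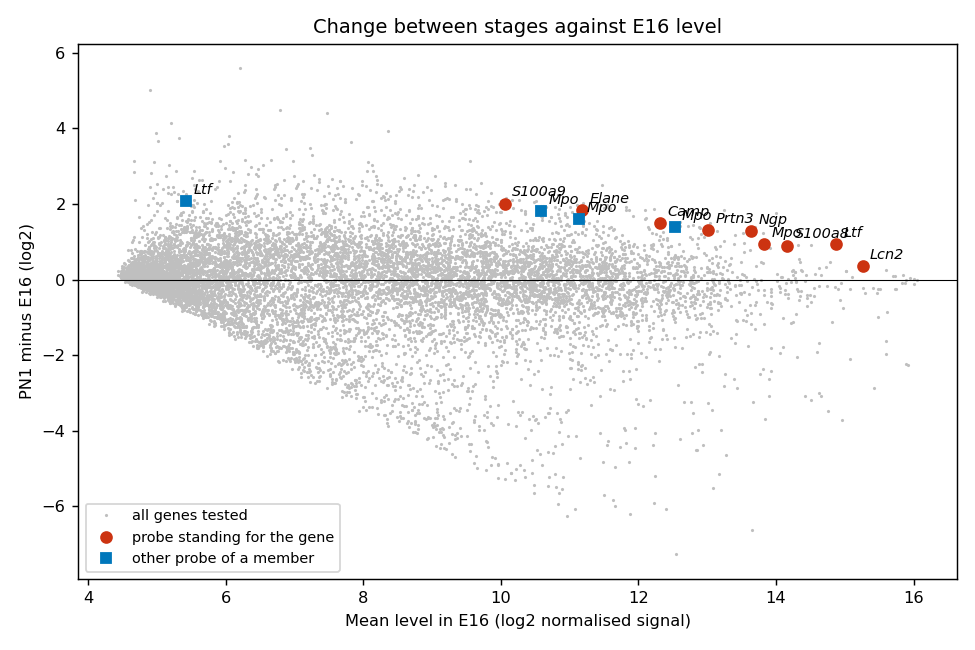
PN1 minus E16 difference (log2, vertical) against the mean E16 level (log2 normalised signal, horizontal) for all 10879 genes (grey), for the probe used for each member (red circles) and for the other 4 member probes (blue squares). The red circles descend from S100a9 at 2.01 to Lcn2 at 0.36, and the 4 Mpo probes descend from 1.80 to 0.95.

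Other genes of the neutrophil were counted by list. The counts are to be read beside the 10.3% of all genes called higher in PN1 and the 13.5% called lower. Of 6 further primary granule genes tested, 2 rose in PN1: Ctsg, the protease cathepsin G, by 1.44 ± 0.21, and Ms4a3, a marker of granulocyte-monocyte progenitors that no E16 array detected, at least 5.22-fold. The median of the 6 was 1.21. Ms4a3, and Slpi and Clec4d below, were detected on the PN1 arrays alone. They passed the filter of detection on 2 arrays only through the group where they were high. That leaned their calls and the list counts and medians towards PN1. Of 14 further secondary or tertiary granule genes, 10 rose and 1 fell, with a median of 1.63 (1.52 with genes undetected in one group at their bound). Among them were Chil3, a chitinase-like protein, at 4.48 ± 0.20, Mmp9, gelatinase B, at 3.13 ± 0.50, and Adam8 at 2.57 ± 0.37. Slpi, a protease inhibitor that no E16 array detected, was at least 3.16-fold higher. Mmp25, also counted as a rise, was detected on 0 E16 arrays and 1 PN1 array, so its change is near background. Arg1, which is also a urea cycle enzyme of hepatocytes, fell by 2.00. All 9 further cytosol and surface genes rose (median 2.12), among them the surface proteins Mcemp1 at 2.69 ± 0.27, Trem3 at 2.67 ± 0.33 and Trem1 at 2.60 ± 0.26, and Clec4d, which no E16 array detected and which was at least 4.38-fold higher in PN1. Anxa1, another of the 9, was detected on 0 E16 arrays and 1 PN1 array, so its rise is near background. All 3 NADPH oxidase genes tested rose (Rac2 1.97 ± 0.45, Cyba 1.39 ± 0.32, Ncf4 1.35 ± 0.41). Of 8 transcription factors of the granulocyte lineage, 4 rose: Spi1, which encodes PU.1, by 2.42 ± 0.30, Gfi1 by 1.89 ± 0.28, Cebpa by 1.85 ± 0.36 and Cebpe, which is needed for secondary granules, by 1.84 ± 0.24. Gfi1 was detected on 1 of the 3 E16 arrays, and Cebpa, Chil3 and Trem3 on 2. Their changes thus rest in part on signals at background and are not exact.

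Genes of other cells in the liver were counted in the same way, beside the same shares of 10.3% higher and 13.5% lower. Of 9 macrophage and Kupffer cell genes 2 rose (Vsig4 2.21 ± 0.26, Clec4f 1.32 ± 0.33), 3 of 5 eosinophil, basophil or mast cell genes rose (Ear6 2.09 ± 0.32, Prg2 1.11 ± 0.25, and Tpsb2, undetected in E16, at least 2.26-fold), and 1 of 6 erythroid genes (Gata1) and 1 of 6 megakaryocyte genes (Gp5) rose. Gp5 was detected on only 1 array of each group, so its rise is near background. Tpsb2 was detected on the PN1 arrays alone and passed the filter only through them, which leaned its call towards PN1. Alb, Afp, Saa1 and Sprr1a, counted below, passed it only through the E16 arrays, which leaned their calls towards falls. Of 3 lymphoid genes Cd79b rose and Igll1 fell, and 2 of 6 endothelial genes fell (Cldn5, Stab2). Of 10 hepatocyte genes 9 fell, and 7 of 9 acute phase genes fell too, with medians of -2.74 and -2.95 (-2.25 and -1.68 with genes undetected in one group at their bound), and 4 of 10 epithelial genes fell. Of the 10 hepatocyte genes 5 were undetected on all 3 PN1 arrays (Alb, Afp, Ttr, Apob and Cps1), all of which were detected on the 3 E16 arrays. The other 5 were detected on all PN1 arrays, among them Serpina1b and Ahsg at 13.65 each, against 15.92 and 15.89 in E16. The Alb probe read only 7.67 in E16. The lowest detected signals were 6.98 to 7.33 on the PN1 arrays and 6.18 to 6.74 on the E16 arrays. An undetected gene is thus not shown to be absent. The summed linear signal of the 10 hepatocyte genes was 180678 to 213530 on the E16 arrays and 35195 to 40335 on the PN1 arrays. The part of the fall in hepatocyte signal in the rise of granule genes was not tested. In such bulk samples, fewer cells of a type and less RNA per cell cannot be told apart.

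**Figure D4:**
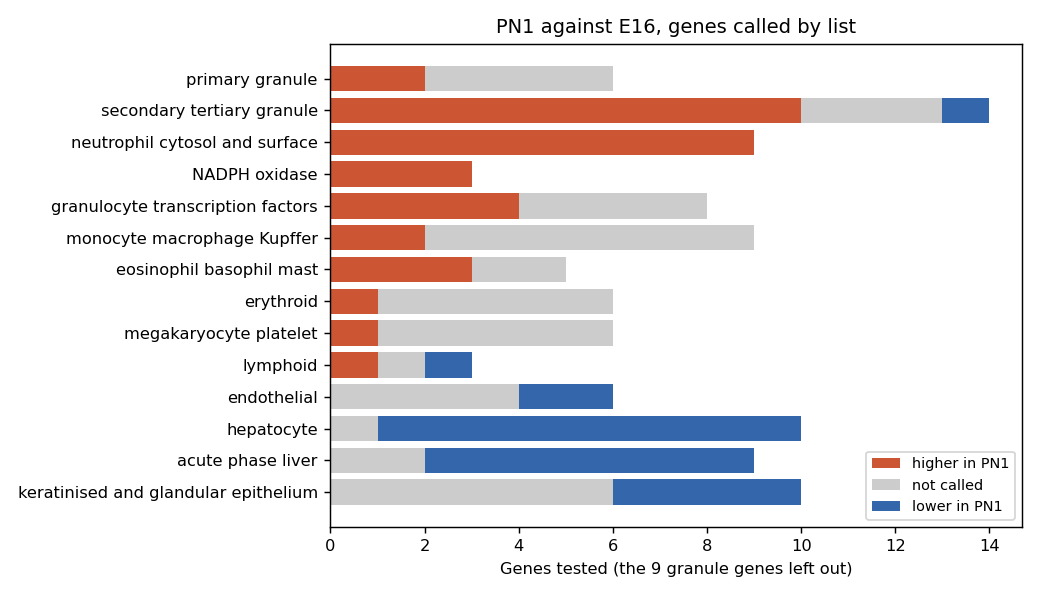
Number of genes called higher in PN1 (orange), called lower (blue) and not called (grey) among the genes tested of each of 14 lists, with the 9 granule genes left out. The neutrophil lists at the top hold 10 of 14 and 9 of 9 rises for secondary granules and for cytosol and surface, and the hepatocyte list holds 9 falls of 10. Of all genes tested, 10.3% were called higher and 13.5% lower.

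Both liver preparations stood above the late cultures for every member. Against the mean of the 3 lines at day 28, all 9 genes were called higher in E16, where 15.5% of all genes were, and all 9 in PN1, where 19.6% were. Ngp, Camp and S100a9, detected on 0 of 36 culture arrays, and Mpo, on 1, passed the filter of detection on 2 arrays only through the liver arrays. Their place among the genes tested thus rested on the groups in which they were high, which leaned their calls towards the liver. Where no day 28 array detected a gene the fold is a lower bound, taken per array against the higher of the gene's own signal and the lowest detected signal. Mpo was at least 238-fold higher in E16 and at least 459-fold in PN1 (adjusted p = 2.3e-28 and 1.5e-29 by limma). Ngp was at least 209- and 510-fold higher, Camp at least 83.0- and 235-fold, and S100a9 at least 17.4- and 70.3-fold. Prtn3 and Ltf were measured on all 6 day 28 arrays and were higher in E16 by 6.32 ± 0.29 and 6.52 ± 0.25, and in PN1 by 7.64 ± 0.29 and 7.47 ± 0.25, on the log2 scale. Elane and S100a8, each detected on 2 of the 6 day 28 arrays, gave fitted differences of 5.62 ± 0.27 and 8.24 ± 0.19 in E16, which are not exact, since the other 4 arrays were at background. Lcn2 stood apart from these, with differences of 1.77 ± 0.20 in E16 and 2.14 ± 0.20 in PN1, or 3.42- and 4.39-fold. Outside the 9, the lists were mixed on the 6 day 28 arrays. Of the 6 further primary granule genes 3 were detected on none of them (among them Ctsg and Ms4a3) and 3 on all (Gusb, Lyz1 and Lyz2). Of the 14 further secondary or tertiary granule genes 8 were detected on none, 3 on some and 3 on all (Hp, Arg1 and Adam8), and of the 8 transcription factors 3 on none (Cebpe, Gfi1 and Spi1), 2 on some and 3 on all.

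In the cultures, Lcn2 rose in all 3 lines between day 14 and day 21. An F-test over the 5 later days against day 0 called it in ES (adjusted p = 9.7e-22 by limma), GPSC-A (4.04e-21) and GPSC-B (1.95e-21), where 44.1%, 37% and 41.1% of all genes were called. On day 0 no array detected it. On day 14 the ES arrays read 6.05 and 5.11, those of GPSC-A 4.66 and 5.05, and those of GPSC-B 6.10 and 6.61, with 1, 0 and 2 of them detecting it. On day 21 it read 13.12 and 12.88, 12.80 and 12.50, and 12.95 and 13.23, and on day 28 14.11 and 13.77, 12.82 and 13.39, and 13.41 and 13.39. The day 21 and day 28 arrays of the lines thus lay together, between 12.50 and 14.11, far above the day 14 arrays and below the lowest E16 array at 14.92. By day 28 the ES level was at least 270-fold above day 0, the GPSC-A level at least 126-fold and the GPSC-B level at least 199-fold. The day-by-line interaction, which called 7.29% of all genes, did not call Lcn2 (adjusted p = 0.062 by limma), but with the replicate number as a block within lines it did (0.016). Leaving out single arrays moved it to either side of the threshold. The largest difference was on day 14, when the change from day 0 was 1.19 ± 0.41 larger in GPSC-B than in ES.

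Ltf also rose late, but by line. It read 4.78 and 5.05 on day 0 in ES, 7.42 and 7.71 on day 21, and 9.44 and 10.24 on day 28, when it was at least 15.7-fold above day 0. In GPSC-B it read 8.65 and 9.52 on day 28, at least 9.98-fold above day 0, and in GPSC-A 6.24 and 6.04, at least 1.01-fold. The ES and GPSC-B arrays of day 28 all lay above the GPSC-A arrays. The interaction called Ltf (adjusted p = 3.8e-06 by limma), with a day 28 change that differed by -3.61 ± 0.51 for GPSC-A against ES. Ltf was also detected on day 7 in both GPSC lines, at 6.37 and 6.70 for GPSC-A arrays and 6.45 and 7.40 for GPSC-B arrays, when the ES arrays at 5.64 and 4.65 did not detect it, and on day 14 no array of any line did. On the authors' processed values the GPSC-A call of Ltf was lost (0.80, under 2-fold). The second Ltf probe was detected on 0 of the 36 culture arrays.

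Prtn3 was the only one of the 3 primary granule members called in all 3 lines, and its highest levels came earlier. In ES it read 5.13 and 6.19 on day 0, 4.87 and 4.75 on day 2, 7.81 and 8.18 on day 7, 7.73 and 8.33 on day 14, and 6.29 and 6.77 on day 28. In GPSC-A it read 5.92 and 6.44 on day 7 and 7.86 and 7.77 on day 14, and in GPSC-B 6.32 and 5.97 on day 7 and 8.33 and 8.06 on day 14. All 3 lines lay together on day 14, and the ES arrays alone were high on day 7. From day 0 to day 14 the ES level changed by 2.37 ± 0.40 (at least 4.48-fold), the GPSC-A level by 1.72 ± 0.40 and the GPSC-B level by 2.35 ± 0.40. The interaction called Prtn3 (adjusted p = 0.018 by limma), with day 7 changes that differed from the ES change by -2.25 ± 0.57 for GPSC-A and -2.03 ± 0.57 for GPSC-B. That call was lost without the second ES array of day 2 (adjusted p = 0.053) or either ES array of day 7 (0.064 and 0.15, limma), and the GPSC-A call on the authors' processed values (0.97, under 2-fold). Elane, its neighbour in the genome, was called in none of the lines (adjusted p = 0.66, 0.76 and 0.32 by limma) and lay between 4.74 and 6.15 on all 36 culture arrays.

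**Figure D5:**
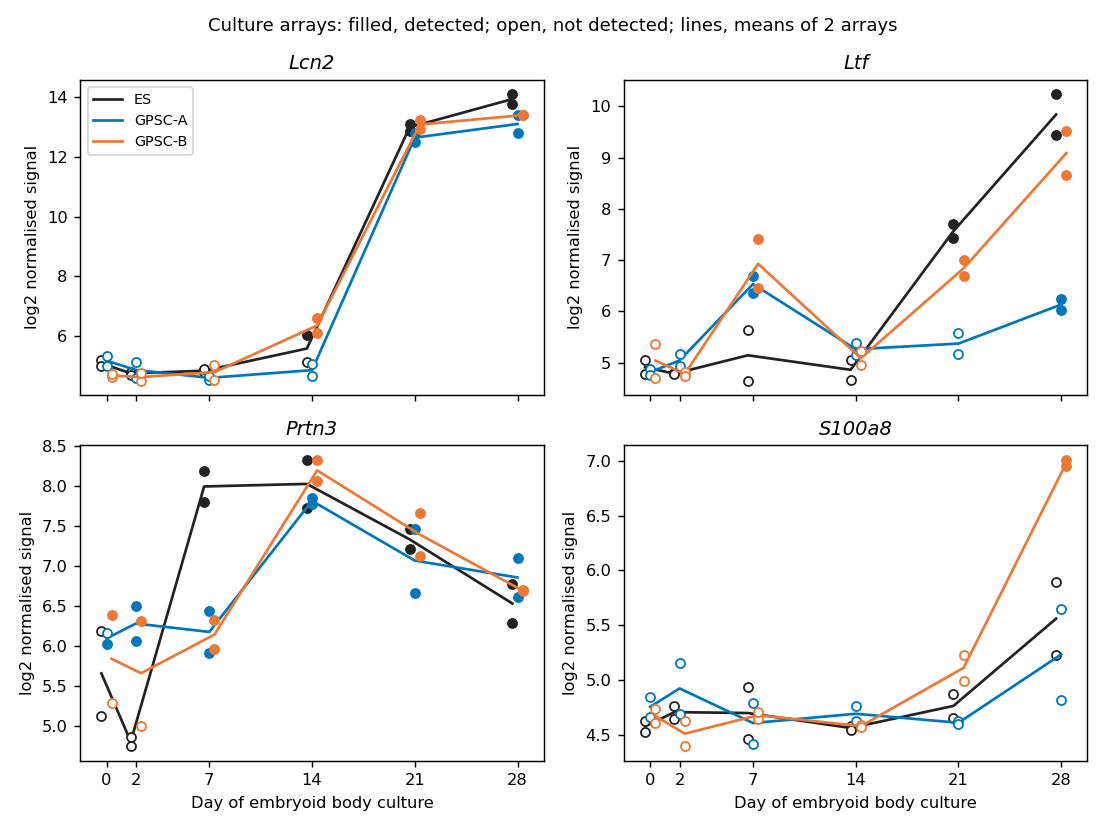
Log2 normalised signal of Lcn2, Ltf, Prtn3 and S100a8 against day of culture in ES (black), GPSC-A (blue) and GPSC-B (orange), with filled points for arrays that detected the gene, open points for arrays that did not and lines through the means of 2 arrays. Lcn2 rises in all lines between days 14 and 21, Ltf ends at 9.84 in ES and 6.14 in GPSC-A, Prtn3 is high in ES by day 7, and S100a8 is detected only in GPSC-B on day 28.

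The remaining members were at or near background in culture. S100a8 was detected on both GPSC-B arrays of day 28, at 7.01 and 6.95, and on no other culture array. The ES arrays of that day read 5.23 and 5.89 and the GPSC-A arrays 4.81 and 5.65. Its rise in GPSC-B was at least 2.32-fold over day 0, a call lost with no background correction (0.96, under 2-fold). The interaction called it (adjusted p = 0.010 by limma, 1.33 ± 0.37 more than in ES), though not without either of those GPSC-B arrays (0.076 and 0.066) or the first ES array of day 28, where the difference was 1.00. S100a9, its partner subunit, stayed between 4.42 and 5.04 on all 36 arrays. Mpo was called in ES, where day 7 read 5.76 and 6.16 against 4.71 and 4.83 on day 0, with 1 of the 2 arrays detecting it, so that the rise was at least 1.07-fold. The interaction called it as well (adjusted p = 0.0025 by limma, -1.21 ± 0.27 for GPSC-A against ES on day 7). The ES call was lost without the second day 7 array (0.99, under 2-fold), and the interaction call too (adjusted p = 0.079). The other 3 Mpo probes differed by 0.36, 0.08 and 0.13 on ES day 7 and were detected on 0 of 36 culture arrays. On the same ES day 7 arrays the summed signal of the 6 erythroid list genes was 18522 to 19951, against 6401 to 13689 on day 0. The sum holds Tfrc, which every array of the series detected. On ES day 0 no other of the 6 was detected on both arrays, and on ES day 7 Hba-a1 and Slc4a1 were too. The part of erythroid genes in the Mpo value was not tested. Camp was called in ES (day 28 change 1.04 ± 0.30, adjusted p = 0.0097 by limma) although no culture array detected it, so no fold is given, and the call was lost without the first day 0 array (0.88) or either day 28 array (adjusted p = 0.13 and 0.076). S100a8 in ES, at 0.98, passed the fold, among the arrays left out in turn, only when array 1 of day 0 (1.03) or of day 28 (1.31) was left out. Over the days 5 members were called for ES, 3 for GPSC-A and 4 for GPSC-B, which are shares of 9 to be read beside the 44.1%, 37% and 41.1% of all genes above.

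Other granule genes were counted over the culture days in the same way. All list counts below are to be read beside the 44.1%, 37% and 41.1% of all genes called in ES, GPSC-A and GPSC-B. In ES, 9 of 14 further secondary or tertiary granule genes rose (median 1.33), with Hp, haptoglobin, at 9.23 ± 0.38, Arg1 at 4.18 ± 0.46, Pglyrp1 at 3.45 ± 0.75 and Adam8 at 2.57 ± 0.45 the largest. A called gene counts as a rise or fall by the sign of its largest change from day 0 on any of the 5 days. Some ES rises were thus passing and near background. Cd177 was detected in ES on 1 array of day 2 only, and Itgam on 1 each of days 14 and 21. Mmp25 was detected on 1 each of days 0 and 2, and on no later ES array. In GPSC-A 2 rose and 1 fell (Hp 8.68 ± 0.38, Arg1 3.59 ± 0.46, Mmp25 -1.26 ± 0.30), and in GPSC-B 3 rose and 1 fell (Hp 8.01 ± 0.38, Arg1 3.39 ± 0.46, Adam8 1.67 ± 0.45, Mmp25 -1.19 ± 0.30). No day 0 array detected Hp, and no GPSC array of that day detected Arg1, so these fitted changes are not exact folds. Hp also stands in the list of acute phase genes of the liver, and its rise is counted in both lists. The lysozyme genes Lyz1 and Lyz2, both in the list of primary granule genes, were called in all 3 lines, and on day 7 no array of any line detected either. Lyz2 averaged 7.59 on day 0, 5.52 on day 7 and 12.52 on day 28 in ES. The same means were 8.97, 4.61 and 9.69 for GPSC-A, and 8.51, 4.83 and 8.58 for GPSC-B. The day with the largest change was thus day 28 in ES, a rise, and day 7 in the GPSC lines, a dip that ES also passed through. These 2 genes are near-identical copies, and a probe of one may read the other. Of 9 macrophage genes 5 rose in ES, against 1 for GPSC-A and 2 for GPSC-B, and their summed signal on day 28 was 7168 to 7430, 351 to 1086 and 363 to 1712. Acute phase genes of the liver rose in all lines, 7, 7 and 8 of 9, and epithelial genes 7, 6 and 6 of 10 (1 fell in ES, Muc1, and 1 in GPSC-B, Wfdc2), with Krt14, a keratin of basal epithelium, at 11.84, 10.23 and 11.74 on day 28. Krt14 was undetected on all liver arrays, as were Krt5, Trp63, Muc1 and Wfdc2 of the same list. Krt8, Krt18 and Krt19, also of that list, were detected on all 3 E16 arrays, at means of 12.40, 11.66 and 11.08. Sprr1a was detected on all 3 as well, and Cdh1 on 2. On the PN1 arrays Krt8, Krt19 and Sprr1a were undetected, and Krt18 and Cdh1 were detected on 1 each. The part of these cell types in the Lcn2 and Ltf values was not tested.

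The genes whose 20 group means were most like each member's were picked by Pearson's r over the groups, which share their arrays and mostly contrast 2 liver groups with 18 cultures. Lcn2 stood nearest to Hp (0.995), H6pd (0.975) and Adh1 (0.970), and Ltf to Pglyrp1 (0.968), Mbp (0.964) and Ces2g (0.958). Elane stood nearest to Fcnb (0.993), Slfn1 and Ctsg, Ngp and Camp to Cstdc4 (0.999 and 0.995) and Ctsg (0.998 and 0.994), S100a9 to Slfn1 (0.997), Ctsg and Pygl, and S100a8 to Abcc3 (0.986), Cstdc4 and Ctsg. Mpo stood nearest to the erythroid and platelet genes Alas2 (0.998), Kel and Gp9, and Prtn3 to F10 (0.960), Rnf123 and Adgrg3. Among the members, Lcn2 correlated with the others at 0.52 to 0.75, and the other 8 with each other at 0.84 or above.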

How the data were processed

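Each of 42 total RNA samples was measured on its own Illumina BeadChip array after miRNeasy extraction and MessageAmp labelling per the labels' protocols. The authors deposited a table of signal intensity per probe and array, not normalised per the file headers, with a detection p-value against the negative controls. The submitters' processing notes name GenomeStudio, without a version. The authors' processed values, a second deposited intensity table with column medians near 133.31, served as an alternative, by a normalisation that no label or header describes.

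The neqc function (limma 3.58.1, R 4.3.3) corrected the background from the detection p-values, added 16, applied quantile normalisation and took log2. Probes with a detection p-value under 0.01 on at least 2 arrays were kept (19251). The brightest kept probe stood for each gene, which gave 10879 genes. One model of 20 group means was fitted to all genes (lmFit, eBayes), with F-tests of the days within a line and of the day-by-line interaction. Bounds, written "at least", set undetected arrays to the higher of their own signal and the lowest detected signal of the array. Between 8427 and 15123 probes were detected per array, 9882 to 11539 in E16 and 8427 to 9287 in PN1. Precision is limited by the number of arrays. Plots used matplotlib 3.10.9 under Python 3.11.15.

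In data simulated with 100 genes changed by each size, the PN1 against E16 test over 10879 genes recovered 73% of changes of 1.5 (log2) and 91% of changes of 2, the ES day test 55% and 75%, and the interaction 9% and 34%. The simulated noise was independent between arrays, and culture changes were set on day 28 only, in GPSC-A for the interaction. Deviations shared between arrays were left out, so these rates may not hold for the real arrays. Same-numbered arrays of a line deviated together (correlations of 0.246 to 0.643 over 15 pairs per line), a pairing found in the data and not named in the labels. The main fits did not include it, so the culture p-values printed treat the arrays of a line as independent. The replicate number entered only as a block in 1 of the alternatives. The members and gene lists were chosen with earlier results of these data known. Named list genes are the called members with the largest changes, up to 4 per list, and any called set of 5 or fewer. For each member the 3 genes with the highest correlation of group means were named. Alternatives were the authors' processed values, no background correction, median scaling, a detection limit of 0.05, no filter, the mean over probes, fits of only the groups compared, the replicate block and leaving out each array.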

Additional observations from a re-analysis of the deposited data

Results flagged for a closer look

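The change over culture days differed between the lines by the interaction test (limma, Benjamini-Hochberg adjusted over all genes) for 4 of the 9 members, where 7.29% of all genes were called. The calls of Prtn3, Mpo and S100a8 were each lost when certain single arrays were left out, as given above. The Ltf call held under every alternative. For Ltf, a secondary granule protein, the largest difference was on day 28, where the change from day 0 in GPSC-A minus that in ES was -3.61 (adjusted p = 3.8e-06). For Prtn3 and Mpo, primary granule proteins, it was on day 7, at -2.25 (adjusted p = 0.018) and -1.21 (adjusted p = 0.0025) for GPSC-A minus ES. For S100a8, a subunit of calprotectin, it was on day 28, at 1.33 for GPSC-B minus ES (adjusted p = 0.010). On those days Ltf and Prtn3 were detected on both arrays of both lines, Mpo on 1 of the 4 arrays and S100a8 on the 2 GPSC-B arrays alone. On day 0 none of the 4 was detected on any array of the lines compared, except Prtn3 on 1 GPSC-A array, so all 4 sizes rest in part on signals at background.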

How the results depend on the processing

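All 9 members kept their direction and call against day 28 in both liver groups under every alternative, and the PN1 minus E16 differences kept their direction under every alternative. Mpo and Ltf passed the fold for PN1 against E16 on the authors' processed values (1.03 and 1.04), with median scaling (1.07 and 1.13), with the mean over probes (1.43 and 1.51) and without the third E16 array. On the authors' processed values and with no background correction, genes called were 1505 and 1420 for PN1 against E16 (2588 otherwise), 2427 and 2282 for E16 against day 28 (3806), and 3210 and 3034 for PN1 against day 28 (4855). With no background correction the culture days called 3132 genes for ES, 2551 for GPSC-A and 2881 for GPSC-B. Median scaling called 1656 genes for PN1 against E16, 299 higher and 1357 lower against 1120 and 1468, with the median of all genes at -0.17, and 325 genes in the interaction. Members called over the days fell from 5 to 3 in ES and from 3 to 1 in GPSC-A, both on the authors' processed values and with no background correction. In ES the lost members were Mpo and Camp, and in GPSC-A Prtn3 and Ltf. In the interaction 4 members became 2 on the authors' processed values, 1 with no background correction, 1 with median scaling and 2 without ES day 7 replicate 2. The causes were not tested.

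With the replicate number as a block, 1484 genes were called in the interaction (793 without), and the block changed no other member's call than that of Lcn2. Same-numbered E16 and PN1 arrays shared only a number (correlations 0.006 to 0.082). Leaving out single arrays gave 2431 to 2677 genes and 5 to 7 members for PN1 against E16, 3686 to 3998 and 4765 to 4951 genes for E16 and PN1 against day 28, 4550 to 4754 genes and 4 to 5 members for ES, 3795 to 4051 genes for GPSC-A, 4298 to 4519 for GPSC-B, and 634 to 906 genes and 2 to 5 members in the interaction. The largest Lcn2 line difference, 1.19 on day 14, was 1.65 without ES day 14 replicate 1 and turned to -1.28 without ES day 14 replicate 2 and to -1.21 without GPSC-A day 28 replicate 2, where another day and line gave it. With 2 or 3 arrays a group and single probes for 7 members, small differences were not measurable, and values at background cannot be ranked.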
